A study of Mus musculus with 8 samples.

Results

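NMuMG mammary epithelial cells that carried a negative-control siRNA and were labelled as given TGFβ were compared with NMuMG cells that carried the same siRNA and no TGFβ. The comparison used 4 of the 8 arrays of the series, 2 per group, and was made by label. Of 34760 probe sets on the array, 21640 carried exactly 1 gene symbol, and keeping the probe set with the highest mean for each gene left 19937 genes, all of which entered the comparison. NMuMG is an untransformed mouse line, used here as the subclone E9, so every array comes from 1 clone of 1 line. The group with TGFβ had siControl, a Stealth RNAi negative-control duplex, plus TGFβ at 2 ng/ml for 2 days, and its counterpart had siControl with no TGFβ. The other 4 arrays, used for side-by-side values, came from cells with siKlf4, a pool of siRNAs against the transcription factor Klf4, with the same TGFβ dose (2 arrays) or without it (2 arrays). Values are log2 expression after robust multi-array averaging, so a difference of 1 is 2-fold on this scale. A gene is said to have risen or fallen where limma's moderated test gave an adjusted p (Benjamini-Hochberg over all 19937 genes) under 0.05. Whether the pair of arrays in a group came from separate cultures is not given in the sources used here, and the p-values then measure only the spread between arrays.

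TGFβ binds a pair of membrane receptor kinases, which phosphorylate Smad2 and Smad3, and these enter the nucleus with Smad4 and switch on genes such as the inhibitor Smad7 and the matrix regulator Thbs1. In mammary epithelial cells it is known to slow the cell cycle and to start an epithelial-mesenchymal transition, in which cells lose E-cadherin junctions and gain N-cadherin, fibronectin and vimentin. An siRNA is loaded into an Argonaute protein and lowers its matching mRNA, can lower other mRNAs that match its seed, and in some cells double-stranded RNA also raises interferon-response genes.

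The arrays were alike in distribution, with medians within 4.902 to 5.002 on the log2 scale over all 8 arrays. Over all genes, the first principal component (65.0% of the variance) set siKlf4-labelled arrays apart from siControl-labelled arrays, and the second (18.9%) set arrays labelled TGFβ apart from those without it in both siRNA groups. Along the first component, too, TGFβ arrays lay apart within each siRNA. Scores were -25.28 and -25.13 with TGFβ, against -33.02 and -32.1 without (siControl), and 37.58 and 37.65, against 19.78 and 20.51 (siKlf4). The luminal keratins Krt8 and Krt18 were among the brightest genes and Cdh1 (E-cadherin) was bright, with a mean of 10.5, while the luminal marker Epcam had a mean of 3.98 and lay below the median gene, as did 6 of the 10 luminal markers measured. None of the 10 luminal, 7 basal, 7 fibroblast, 4 endothelial or 3 adipocyte markers passed the test between the siControl groups, where 12.5% of all genes did. Lists this short can hold few calls at that share. Of 5 immune markers, 1 fell: Cd68, a lysosomal protein of macrophages, read 5.59 and 6.05 in siControl cells with TGFβ, against 7.16 and 7.07 in siControl cells without it, while the pan-leukocyte marker Ptprc was low in both groups (3.83 and 3.74, against 3.70 and 3.83).

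With TGFβ, 1158 of the 19937 genes rose (5.81%) and 1326 fell (6.65%) in siControl cells, 2484 in all (12.5%), and the median difference over all genes was 0.02 on the log2 scale. The siControl groups did not overlap for 10289 genes (51.6%). Of the genes called, 373 rose (1.87% of all genes) and 455 fell (2.28%) by at least 1.5-fold. Single arrays carried part of these counts: 808 genes rose and 726 fell without siControl array 1, 539 and 567 without siControl TGFβ array 1, and 481 and 609 without siControl TGFβ array 2. An ordinary one-way analysis of variance, which lends no spread between genes, called 734 higher and 755 lower.

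The 15 genes that rose most had a range of known roles. Adam9, a membrane-bound metalloprotease, read 9.47 and 9.37 in siControl cells with TGFβ, against 7.28 and 7.32 in siControl cells without it. Its means were 9.42 ± 0.07 and 7.30 ± 0.03 (SD, n = 2 each), a 4.33-fold rise (log2 difference 2.11, SE 0.0831, adjusted p = 2.35e-05 by limma), and it was the largest increase of all. Mmp13, collagenase 3, read 9.83 and 9.77 with TGFβ, against 7.89 and 7.73 without it (log2 difference 1.99, adjusted p = 2.35e-05). In both genes the 2 arrays of a group lay close together and far from those of the other group. Cyrib, a Rac1-binding regulator of the actin skeleton, rose by 1.88 on the log2 scale, and Upk1b, a tetraspanin of the urothelial surface, by 1.80. Upk1b read 8.33 and 8.46 with TGFβ, against 6.597 and 6.596 without it. Tmtc3 (1.71), an O-mannosyltransferase of the endoplasmic reticulum, Arhgef26 (1.69), a guanine nucleotide exchange factor, Cacna2d1 (1.64), an auxiliary subunit of calcium channels, and the histone deacetylase Hdac1 (1.64) followed. A second probe set of Hdac1 differed by 1.75. The remaining genes of the 15 were Dynlt3 (1.63, a dynein light chain), Tprgl (1.503), Plpp3 (1.48, a lipid phosphatase), Tnc (1.46, the matrix glycoprotein tenascin C), Fgf18 (1.46, a fibroblast growth factor), and Akr1c14 (1.46) and Ugt2b35 (1.46), whose families hold near-identical members that can share probes.

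The 15 genes that fell most were as varied in their known roles. Purb, a protein that binds purine-rich single-stranded nucleic acid, read 7.38 and 7.31 in siControl cells with TGFβ, against 10.06 and 9.81 in siControl cells without it. It had the largest change in either direction, 6.01-fold lower (log2 difference -2.59, SE 0.115, adjusted p = 2.35e-05), although its second probe set differed by -1.09 on the log2 scale. Prkar2a, a regulatory subunit of protein kinase A, read 6.70 and 6.68 with TGFβ, against 9.03 and 8.77 without it (log2 difference -2.21, adjusted p = 3.44e-05). Neither gene had overlapping groups. Ebp, a sterol isomerase of cholesterol synthesis, changed by -1.73, the steroid 21-hydroxylase Cyp21a1 by -1.56, and Akr1c18, an enzyme that inactivates progesterone, by -1.51. Slc35a5 (-1.74), of the nucleotide sugar transporter family, Zfp946 (-1.63), a zinc finger protein, Pdcd10 (-1.48), a partner of GCKIII kinases, Emc6 (-1.46), a subunit of the membrane protein insertase of the endoplasmic reticulum, and Dpy19l1 (-1.45), a C-mannosyltransferase, also fell. The last of the 15 were Padi1 (-1.45, which converts arginine to citrulline in proteins), Rab32 (-1.43, a small GTPase of lysosome-related organelles), Mat2b (-1.43, a subunit of the enzyme that makes S-adenosylmethionine), Ankrd37 (-1.38, known as a hypoxia-induced gene) and Anapc16 (-1.37, a subunit of the anaphase-promoting complex). All 30 of these largest changes stayed past the threshold with any single array left out, but by the ordinary analysis of variance Akr1c14 (adjusted p = 0.0584), Ugt2b35 (0.0819), Cyp21a1 (0.0795) and Akr1c18 (0.0595) missed it.

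**Figure D1:**
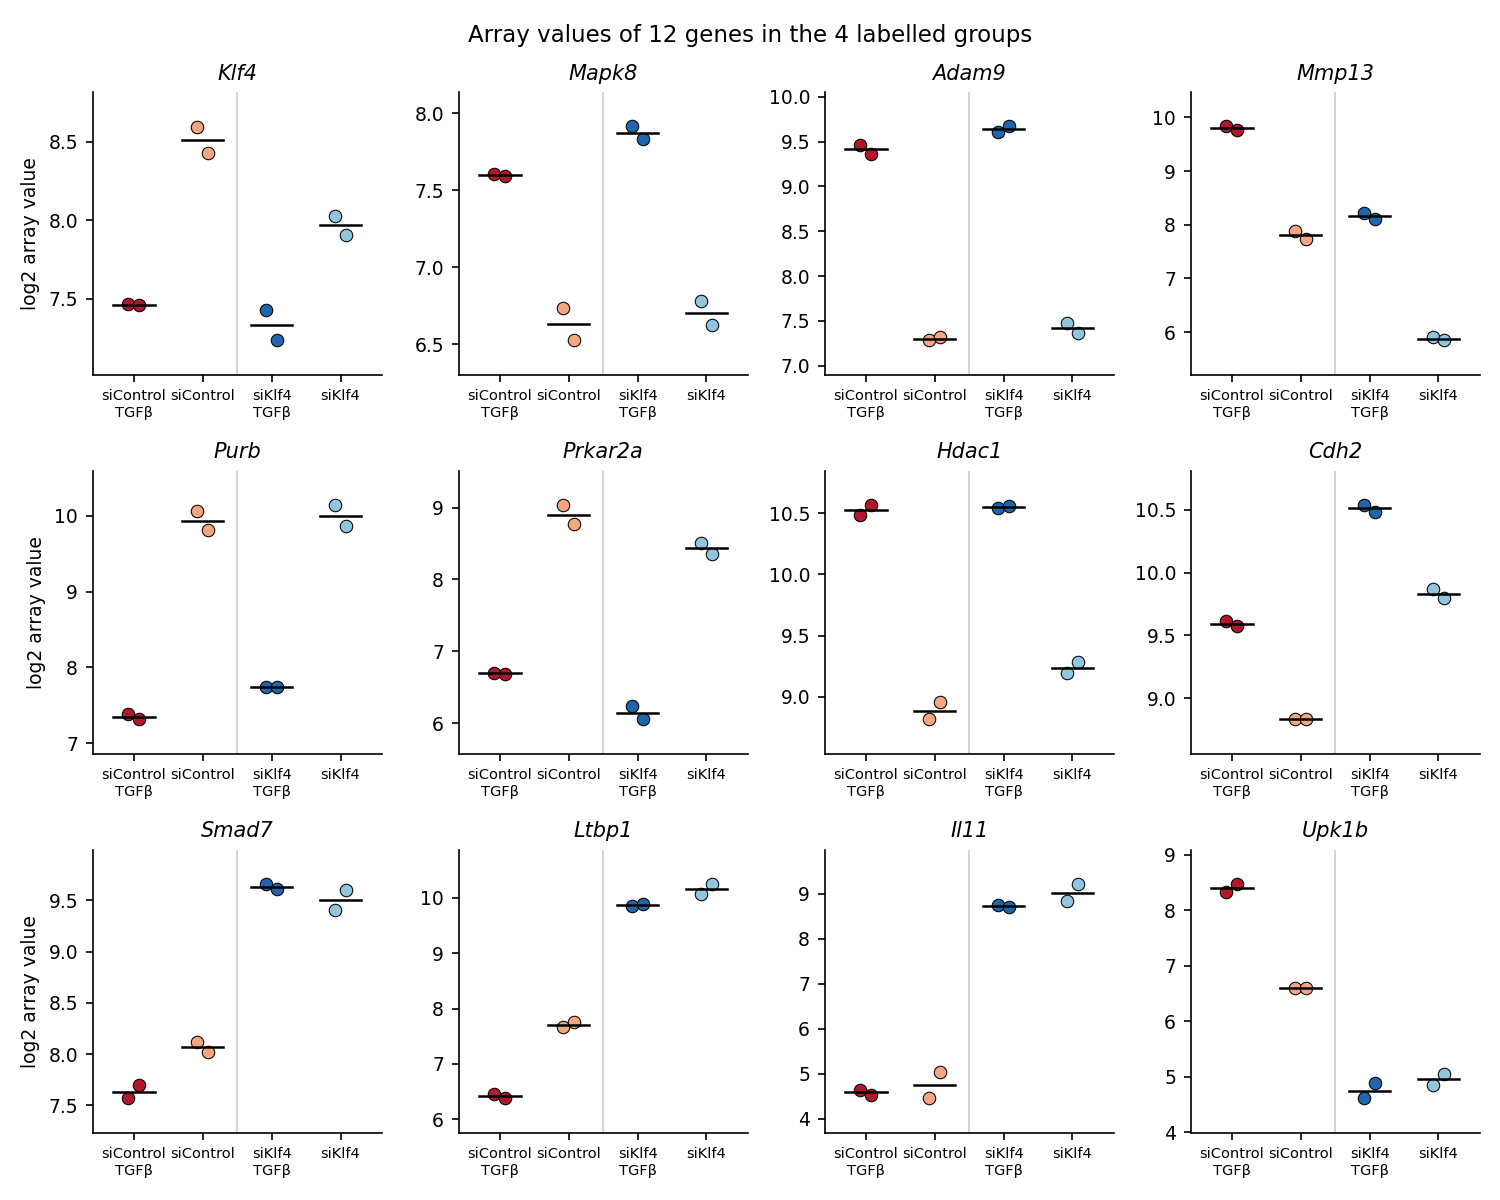
Log2 array values (vertical axes, each with its own range) of 12 genes in siControl cells with TGFβ and without it and in siKlf4 cells with TGFβ and without it, each point 1 array and each line a group mean. For Adam9, Mmp13, Purb and Prkar2a the gap between siControl groups is far wider than the gap within a group, whereas Il11 values overlap in siControl cells.

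Genes that TGFβ is known to switch on in epithelial cells did not rise together in siControl cells labelled TGFβ. Of 33 genes listed, 31 were measured: 3 rose, 7 fell and 21 did not pass the test, with a median log2 difference of -0.03, against 0.02 for all genes, where 5.81% rose and 6.65% fell. Smurf2, a ubiquitin ligase that limits TGFβ signalling, read 8.36 and 8.43 in siControl cells with TGFβ, against 7.603 and 7.37 in siControl cells without it, and rose by 0.91 (adjusted p = 0.000636). Thbs1, thrombospondin 1, an activator of latent TGFβ, rose by 0.61, and the CDK inhibitor Cdkn2b by 0.45, a call that ended without siControl TGFβ array 2 (adjusted p = 0.0819). Ltbp1, which holds latent TGFβ in the matrix, read 6.45 and 6.38 with TGFβ, against 7.67 and 7.75 without it, and fell by 1.30 (adjusted p = 8.59e-05). The AP-1 subunit Junb (7.52 and 7.28 with TGFβ, against 8.51 and 8.10 without) fell by 0.91. Smad7, the inhibitory Smad and a direct Smad target, differed by -0.44 (adjusted p = 0.0169), but its adjusted p was 0.0892 without siControl array 1, 0.137 without siControl TGFβ array 1 and 0.0524 without siControl TGFβ array 2. In siControl cells, Il11, a cytokine strongly induced by TGFβ in many cells, read 4.65 and 4.54 with TGFβ, against 4.45 and 5.03 without it, both near or below the median gene. The count of genes that fell was 4 without siControl array 1 and 3 without either siControl TGFβ array, and 3 by the ordinary analysis of variance.

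The same 31 genes lay otherwise along the siRNA label. In siKlf4 cells without TGFβ set against siControl cells without TGFβ, 25 of the 31 were higher and 0 lower, where 9.98% of all genes were higher and 9.71% lower (19.7% in all), and 24 or 25 were higher with any single array left out. The median difference of the list was 1.01 there and 1.24 between siKlf4 and siControl cells that both had the TGFβ label, with 25 higher and 0 lower again. These contrasts use siControl arrays of the TGFβ comparison too, so they are set side by side only. Il11 read 8.75 and 8.69 in siKlf4 cells with TGFβ and 8.82 and 9.21 in siKlf4 cells without it, beside the siControl values above. Within siKlf4 cells, TGFβ against none gave 4 higher and 1 lower of the 31, with a median of 0.06, where 6.01% of all genes rose and 6.87% fell. Of these, 2 were higher without siKlf4 array 2 or either siKlf4 TGFβ array, and 0 to 3 were lower over the arrays left out, with 3 lower without either siControl array, 2 without siKlf4 array 1 and 0 without any of the others. Whether labels of arrays were exchanged was not tested.

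**Figure D2:**
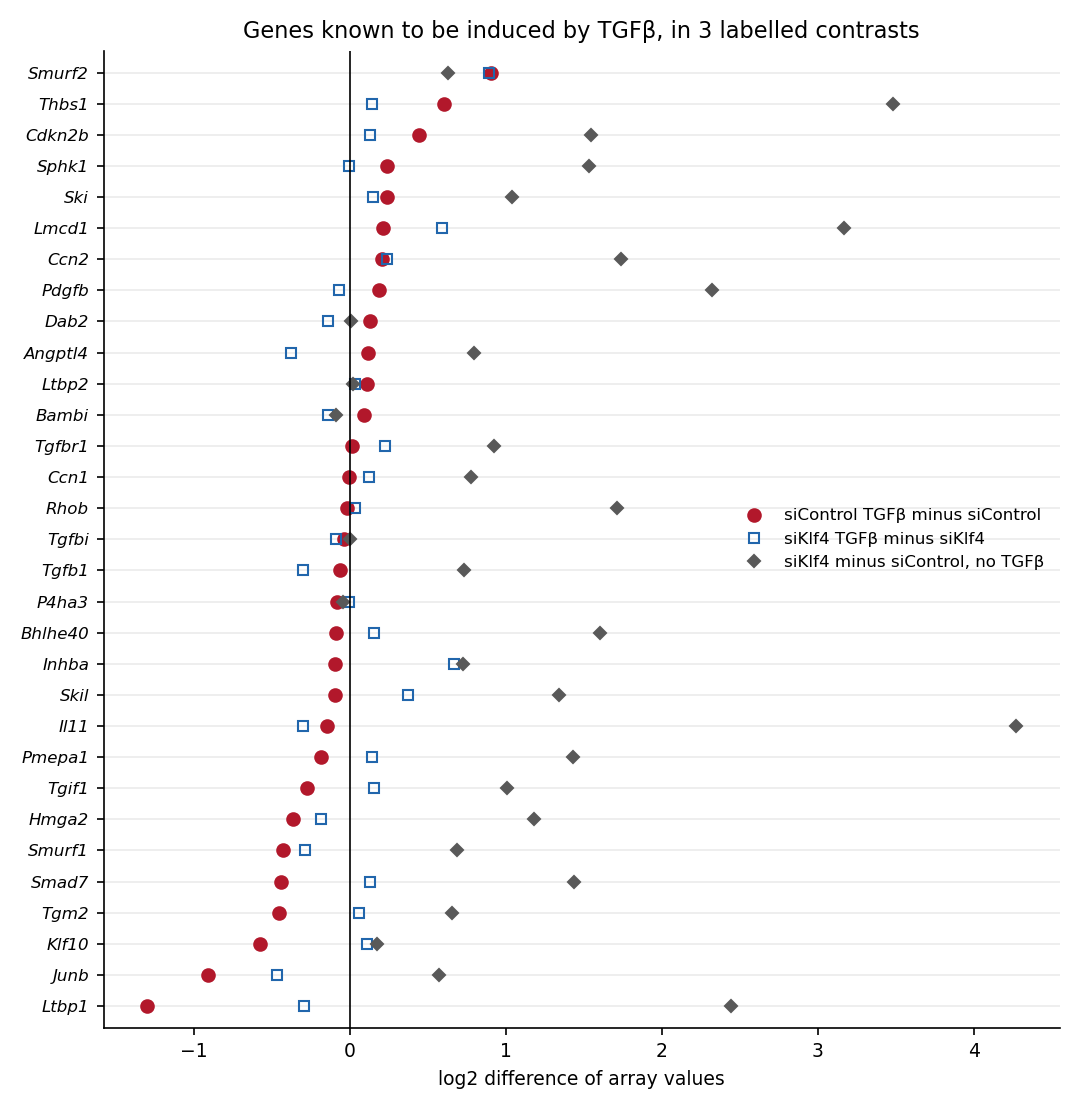
Log2 differences of the 31 measured genes that TGFβ is known to induce, for TGFβ against none in siControl cells, TGFβ against none in siKlf4 cells and siKlf4 against siControl cells without TGFβ, each point 1 gene. The medians are -0.03, 0.06 and 1.01.

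A separate list of receptors, ligands and Smads moved little, and its members that passed the test rose. Smad7, which fell by 0.44 with the limits given above, is not among them. Of 36 measured (37 listed), 7 rose and 0 fell, where 5.81% and 6.65% of all genes did, with a median of 0.17 (15 higher and 0 lower at an unadjusted limma p under 0.05). Tgfbr2, the ligand-binding receptor kinase, read 9.29 and 9.35 in siControl cells with TGFβ, against 8.74 and 8.72 in siControl cells without it, a rise of 0.59 (adjusted p = 0.0014), against -0.05 in siKlf4 cells. The gap of 0.63 between these effects (adjusted p = 0.0263 by limma) did not stay past the threshold once any single array was left out. Fst, follistatin, an antagonist of activins, rose by 0.50 and the ligand Bmp4 by 0.47, both calls ending without siControl TGFβ array 1 (adjusted p = 0.0753 for each). The count of 7 was 4 without siControl array 1, 1 without siControl TGFβ array 1, and 3 without siControl TGFβ array 2 or either siKlf4 TGFβ array, and it was 4 by the ordinary analysis of variance. None of the 14 Id genes and other genes that TGFβ is known to lower passed the test (2 were higher and 2 lower at an unadjusted limma p under 0.05), although 2 rose without siControl array 1 and 2 fell without siControl array 2.

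The genes of the epithelial-mesenchymal transition changed in part and in both directions. Among 24 measured transcription factors of the transition (26 listed), 4 rose and 1 fell, and among 28 mesenchymal genes (31 listed) 5 rose and 1 fell, where 5.81% of all genes rose and 6.65% fell. Cdh2, N-cadherin, read 9.61 and 9.57 in siControl cells with TGFβ, against 8.83 and 8.83 in siControl cells without it, and rose by 0.76 (adjusted p = 0.000449). Sparc, a matrix protein that binds collagen, rose by 1.08 (10.39 and 10.34 with TGFβ, against 9.29 and 9.29 without). S100a4, a calcium-binding protein linked to cell motility, fell by 1.15 (7.56 and 7.44 with TGFβ, against 8.77 and 8.53 without). Vim, vimentin, was bright and differed by -0.08 (adjusted p = 0.612), and Fn1, fibronectin, by 0.14 (adjusted p = 0.358). Of 41 epithelial junction genes (42 listed) 3 rose and 2 fell, and Cdh1 read 10.62 and 10.62 with TGFβ, against 10.37 and 10.36 without it (log2 difference 0.25, adjusted p = 0.0672). Both Cdh1 values with TGFβ lay above both values without it, and the difference missed the threshold. The 5 junction genes called are 12.2% of those measured, near the 12.5% of all genes. The factor that fell was not called without siControl array 1 or either siControl TGFβ array nor by the ordinary analysis of variance, the mesenchymal genes that fell numbered 2 without siControl array 2 or siControl TGFβ array 1, and the junction genes that fell numbered 1 without siControl array 1, either siControl TGFβ array or either siKlf4 TGFβ array.

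Matrix, integrin and adhesion genes moved in both directions as well. Of 44 collagen and basement membrane genes measured (46 listed), 7 rose and 5 fell, of 14 integrins 4 rose and 4 fell, and of 38 focal adhesion and actin genes (40 listed) 9 rose and 3 fell, where 5.81% of all genes rose and 6.65% fell. Col4a1, a basement membrane collagen chain, read 8.15 and 8.22 in siControl cells with TGFβ, against 7.25 and 7.42 in siControl cells without it, and rose by 0.85. The basement membrane genes Hspg2 (perlecan, 0.78) and Lamb2 (a laminin chain, 0.77) also rose. Plod2, a lysyl hydroxylase that prepares collagen for cross-linking, read 8.25 and 8.12 with TGFβ, against 8.96 and 8.85 without it, and fell by 0.72, whereas in siKlf4 cells it differed by 0.57. Itga2, the alpha chain of a collagen receptor, rose by 0.62, and Itgb6, the beta chain of the receptor that activates latent TGFβ, fell by 0.54. Among adhesion genes, vinculin (Vcl) rose by 0.61, the calponin Cnn3 by 0.72 and Marcks, a membrane-to-actin linker, by 0.68, while the catenin relative Ctnnal1 fell by 0.84. Without siControl array 1, the counts were 4 and 2 (collagens) and 2 and 1 (integrins), with 1 adhesion gene lower. Without siControl array 2, 2 collagen genes and 1 adhesion gene were lower and 2 integrins higher. Without siControl TGFβ array 1 they were 4 and 2, 2 and 2, and 4 and 1 for the 3 lists, and without siControl TGFβ array 2 they were 4 and 1, 1 and 1, and 4 and 1. Without either siKlf4 TGFβ array, 3 collagen genes were lower and 2 integrins higher. By the ordinary analysis of variance 4 collagen genes rose and 3 fell, and 2 integrins rose.

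The TGFβ difference was also measured in siKlf4 cells, which share no array with the siControl comparison. There 1199 genes rose (6.01%) and 1370 fell (6.87%). Of the genes that rose in siControl cells, 609 (52.59%) rose in siKlf4 cells too, which is 50.79% of those that rose there. Of the genes that fell in siControl cells, 703 (53.02%) fell in siKlf4 cells, 51.31% of those that fell there. Another 14 genes rose in siControl cells and fell in siKlf4 cells, and 19 did the opposite. Of the 2484 genes called in siControl cells, 2223 (89.5%) had the same sign in siKlf4 cells. Across all 19937 genes, which are not independent replicates and were normalized together, the log2 differences correlated with a Pearson r of 0.592 and a Spearman rho of 0.443. Among the largest changes, 11 of the 15 increases rose in siKlf4 cells and 12 of the 15 decreases fell there. Adam9 (2.21 in siKlf4 cells), Mmp13 (2.29), Cyrib (1.65), Purb (-2.25) and Prkar2a (-2.29) were among them. The genes that rose in both numbered 329 and 301 without siControl TGFβ array 1 and 2, and 350 and 315 without siKlf4 TGFβ array 1 and 2. Those that fell in both numbered 446 without siControl array 1, 373 and 381 without siControl TGFβ array 1 and 2, and 392 and 433 without siKlf4 TGFβ array 1 and 2. In siKlf4 cells alone, 613 genes rose and 683 fell without siKlf4 TGFβ array 1, 498 and 776 without siKlf4 TGFβ array 2.

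**Figure D3:**
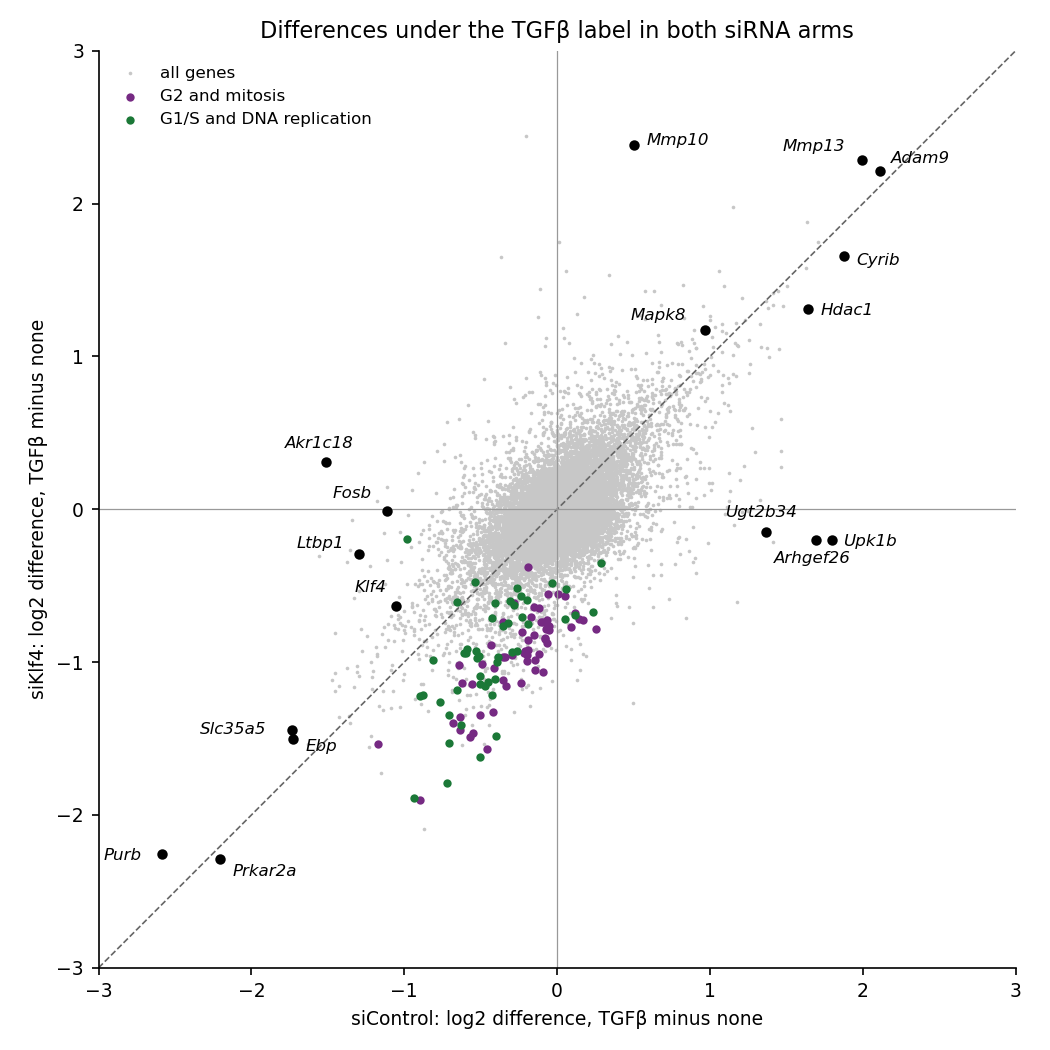
Log2 difference with TGFβ in siControl cells (horizontal axis) against that in siKlf4 cells (vertical axis), each grey point 1 gene, with replication and mitotic genes in colour and selected genes named. Adam9, Mmp13, Purb and Prkar2a lie near the diagonal, and Upk1b and Arhgef26 lie far to the right of it.

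Klf4 and Mapk8 moved the same way in both siRNA groups. Klf4, a zinc finger transcription factor of differentiated epithelia, read 7.46 and 7.46 in siControl cells with TGFβ, against 8.595 and 8.430 in siControl cells without it. In siKlf4 cells it read 7.43 and 7.24 with TGFβ, against 8.03 and 7.91 without it. It fell by 1.05 in siControl cells (SE 0.0987, adjusted p = 0.000357) and by 0.63 in siKlf4 cells (adjusted p = 0.00295). Mapk8, which encodes the stress kinase JNK1, read 7.604 and 7.59 in siControl cells with TGFβ, against 6.73 and 6.53 in siControl cells without it, and rose by 0.97 (SE 0.0974, adjusted p = 0.000464). In siKlf4 cells Mapk8 read 7.91 and 7.83 with TGFβ, against 6.78 and 6.62 without it, a rise of 1.17 (adjusted p = 0.000127). The difference between the 2 rises was -0.20 (adjusted p = 0.63). For both genes the groups with and without TGFβ did not overlap in either siRNA. As the target of siKlf4, Klf4 was also set against its level in siControl cells, in contrasts that use the siControl arrays again. It was 1.46-fold lower in siKlf4 than in siControl cells without TGFβ (log2 difference -0.54, adjusted p = 0.00369), and with TGFβ the difference was -0.13 (95% interval -0.351 to 0.096, adjusted p = 0.444).

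DNA replication genes fell together with TGFβ in siControl cells. Of 48 measured G1/S and replication genes (50 listed), 34 fell and 1 rose, where 6.65% of all genes fell, and the median was -0.44. Of 57 G2 and mitosis genes (58 listed), 19 fell and 0 rose (27 lower and 0 higher at an unadjusted limma p under 0.05), with a median of -0.19. Mcm6, a subunit of the replicative helicase, read 9.63 and 9.57 in siControl cells with TGFβ, against 10.41 and 10.32 in siControl cells without it (log2 difference -0.77, adjusted p = 0.000644). Mcm5, of the same helicase, read 9.49 and 9.43 with TGFβ, against 10.19 and 10.14 without it (-0.71). Both helicase genes were lower in both TGFβ arrays by more than the gap within any group. The transcription factor E2f1 (-0.81), which drives S-phase genes, the thymidine kinase Tk1 (-0.72), the replication initiation factor Gins1 (-0.90), the chromatin assembly factor Chaf1a (-0.88) and Uhrf1 (-0.94), which maintains DNA methylation, also fell. Among mitotic genes, Cdc25b, the phosphatase that activates Cdk1, read 8.10 and 8.14 with TGFβ, against 9.35 and 9.23 without it, and fell by 1.17. The condensin subunits Ncapg2 (-0.90) and Ncapg (-0.68) and the kinetochore protein Spc25 (-0.64) fell. Cdk1 differed by 0.09, Top2a by -0.05, Plk1 by -0.08 and Ccnb2 by -0.09, and none of these 4 passed the test. The 34 replication genes that fell were 22 without siControl array 1, 18 without siControl TGFβ array 1 and 16 without siControl TGFβ array 2, and the 19 mitotic genes were 10, 8 and 8. By the ordinary analysis of variance 21 replication and 10 mitotic genes fell. The replication gene that rose, Ccne1 (0.29, cyclin E1), was not called once any single array was left out (adjusted p 0.054 to 0.277).

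Genes of both lists fell with TGFβ in siKlf4 cells as well. There, 47 of the 48 replication genes and all 57 mitotic genes fell, where 6.87% of all genes fell, each list with a median of -0.93. The difference was lower in siKlf4 than in siControl cells for 45 of the 48 and for 57 of the 57. Mcm6 differed by -1.26 in siKlf4 cells, Mcm5 by -1.53, Ncapg by -1.40 and Spc25 by -1.36. Both lists were also lower along the siRNA label. In siKlf4 against siControl cells without TGFβ, 44 of the 48 and 56 of the 57 were lower, where 9.71% of all genes were. The medians of that contrast were -0.625 (replication) and -0.784 (mitosis). It uses the siControl arrays again, so it is set side by side only. The test of the difference between the 2 TGFβ effects, siControl minus siKlf4, called 14 replication and 31 mitotic genes, all of them higher, where 0.978% of all genes were higher. The ordinary analysis of variance called 0 genes of any kind for this difference (1337 higher and 1063 lower at an unadjusted p under 0.05), and the counts by limma rested on single arrays. For the mitotic genes they were 9 without siControl array 2, 1 and 0 without siControl TGFβ array 1 and 2, 20 without siKlf4 array 1, and 0 without either siKlf4 TGFβ array. For the replication genes they were 4 without siControl array 2, 3 without either siControl TGFβ array, 9 and 7 without siKlf4 array 1 and 2, and 3 and 2 without siKlf4 TGFβ array 1 and 2. The fall within siKlf4 cells stood at 40 to 47 replication genes and 53 to 57 mitotic genes with any single array left out. In these bulk samples, fewer cycling cells and less of each mRNA per cell cannot be told apart.

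**Figure D4:**
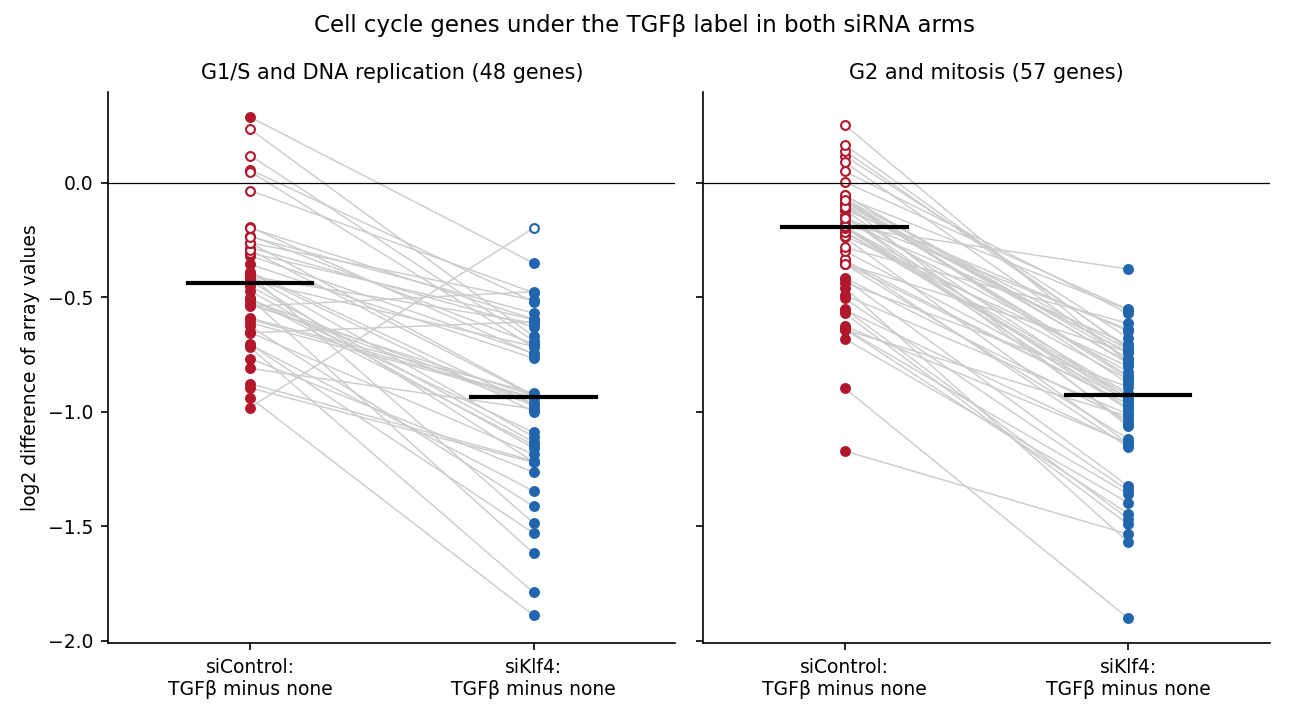
Log2 differences with TGFβ of the 48 G1/S and replication genes and the 57 G2 and mitosis genes, in siControl cells and in siKlf4 cells, each point 1 gene joined to itself by a line, filled where it passed the test, with thick lines at the medians. The medians are -0.44 (replication) and -0.19 (mitosis) in siControl cells and -0.93 for both lists in siKlf4 cells.

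The promoters of 4 genes that fell in both siRNA groups are shown because both lists are known for a promoter element each, the E2F site of replication genes and the cell cycle homology region (CHR) of mitotic genes. Each run is 250 bases before to 50 bases after the transcription start from RefSeq (GRCm38.p6), 5′ to 3′ along the gene, with capitals marking matches on either strand to the letters TTTGGCGC, TTTCGCGC or TTTCCCGC (E2F) in Mcm6 and Mcm5 and TTTGAA (CHR) in Ncapg and Spc25. The windows are chr1:128359656-128359955, minus strand (Mcm6), chr8:75109259-75109558, plus strand (Mcm5), chr5:45669675-45669974, plus strand (Ncapg) and chr2:69206164-69206463, minus strand (Spc25).
Mcm6: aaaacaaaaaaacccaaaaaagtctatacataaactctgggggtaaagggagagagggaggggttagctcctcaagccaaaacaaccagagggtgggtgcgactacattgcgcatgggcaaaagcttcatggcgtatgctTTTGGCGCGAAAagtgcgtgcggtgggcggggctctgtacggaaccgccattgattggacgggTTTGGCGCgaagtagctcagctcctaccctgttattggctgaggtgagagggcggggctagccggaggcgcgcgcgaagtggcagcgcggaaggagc
Mcm5: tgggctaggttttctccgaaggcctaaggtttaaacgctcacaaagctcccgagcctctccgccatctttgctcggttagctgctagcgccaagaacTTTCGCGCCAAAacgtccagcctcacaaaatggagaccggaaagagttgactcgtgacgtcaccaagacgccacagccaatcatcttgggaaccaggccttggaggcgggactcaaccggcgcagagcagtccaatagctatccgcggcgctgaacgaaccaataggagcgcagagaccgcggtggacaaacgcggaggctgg
Ncapg: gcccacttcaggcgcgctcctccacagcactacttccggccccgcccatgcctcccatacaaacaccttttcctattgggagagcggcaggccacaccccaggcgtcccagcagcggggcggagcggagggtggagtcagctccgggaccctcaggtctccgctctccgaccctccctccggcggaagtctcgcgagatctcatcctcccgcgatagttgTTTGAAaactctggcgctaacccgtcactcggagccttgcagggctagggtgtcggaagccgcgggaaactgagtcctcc
Spc25: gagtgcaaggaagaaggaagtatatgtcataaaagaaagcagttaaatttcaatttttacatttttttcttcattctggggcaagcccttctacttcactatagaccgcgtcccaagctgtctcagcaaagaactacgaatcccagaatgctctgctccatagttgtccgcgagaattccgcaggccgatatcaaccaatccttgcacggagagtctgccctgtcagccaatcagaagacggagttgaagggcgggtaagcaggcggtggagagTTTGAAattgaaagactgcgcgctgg

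The Mcm6 window held 3 matches to the E2F letters, 2 of which overlap on opposite strands in 1 marked stretch. The Mcm5 window held 2, which overlap in the same way in 1 stretch, whereas the Ncapg and Spc25 windows each held 1 match to the CHR letters. With 1 promoter per gene, the E2F letters were present in 15 of 41 replication gene promoters (36.6%), 6 of 48 mitotic ones (12.5%) and 515 of 27025 in all (1.91%). The CHR letters were present in 6 of 41 replication gene promoters (14.6%), 35 of 48 mitotic ones (72.9%) and 4893 of 27025 in all (18.1%). A match is a description of the letters only.

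Cyclins, CDK inhibitors and p53 targets moved in both directions. Of 17 cyclins and CDK inhibitors (18 listed), 2 rose and 7 fell, and of 22 p53 targets (24 listed) 8 rose and 2 fell, where 5.81% of all genes rose and 6.65% fell. Cdkn2d, an inhibitor of Cdk4 and Cdk6, read 7.25 and 7.24 in siControl cells with TGFβ, against 8.20 and 7.87 in siControl cells without it, and fell by 0.79. The p53 targets Perp (0.81), a desmosomal protein, and Eda2r (0.76), a receptor of the TNF family, rose, and the antiproliferative gene Btg2 fell by 0.70. In siKlf4 cells Perp differed by 1.09 and Eda2r by -0.08. For Eda2r the gap of 0.85 between the effects (adjusted p = 0.0453 by limma) did not stay past the threshold once any single array was left out. Of the cyclins and inhibitors, 3 fell without siControl array 1 or siControl TGFβ array 1, 1 rose without either siControl array or either siKlf4 TGFβ array, and 0 rose without either siControl TGFβ array. The p53 targets were 5 higher and 1 lower without siControl array 2, and 4 higher and 1 lower without either siControl TGFβ array. By the ordinary analysis of variance 4 of the cyclins and inhibitors fell, and 4 p53 targets rose and 1 fell.

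Among immediate-early genes of the AP-1 and ERK pathways, those that passed the test fell, and genes that restrain ERK signalling moved in both directions. Of 36 genes of AP-1, ERK feedback and JNK signalling (37 listed), 14 fell and 4 rose, or 18 in all, where 12.5% of all genes were called, and 10 to 14 fell and 4 rose with any single array left out, against 8 and 4 by the ordinary analysis of variance. Fosb, an AP-1 subunit, read 7.13 and 7.17 in siControl cells with TGFβ, against 8.43 and 8.10 in siControl cells without it, and fell by 1.11 (adjusted p = 0.000422). Egr1, a growth-factor-induced transcription factor, fell by 0.95 (7.18 and 6.93 with TGFβ, against 8.01 and 7.995 without), and Fos by 0.63. The MAP kinase phosphatases Dusp2 (-0.88) and Dusp1 (-0.54) and the immediate-early genes Ier2 (-0.64) and Ier3 (-0.75) also fell. Spred1, an inhibitor of Ras signalling, read 9.14 and 9.13 with TGFβ, against 7.84 and 7.69 without it, and rose by 1.37 (adjusted p = 6.78e-05). Its relatives Spry1 (0.87) and Spred2 (0.54) rose as well, and with Mapk8 they are the 4 that rose. Another relative, Spred3, fell by 0.37 (adjusted p = 0.0227), a call that ended without any 1 of the 4 siControl arrays (adjusted p 0.057 to 0.176). Jun, the partner of Fos in AP-1, fell by 0.55 in siControl cells, whereas its difference in siKlf4 cells was 0.50, and the gap of -1.06 between them had an adjusted p of 0.0111, but of 0.0595 and 0.0652 without siControl TGFβ array 1 and 2 and of 0.0629 and 0.0683 without siKlf4 TGFβ array 1 and 2. In siKlf4 cells 9 of the 36 fell and 5 rose, where 6.87% of all genes fell and 6.01% rose. The number that fell there was 6 without either siControl TGFβ array, 5 and 3 without siKlf4 array 1 and 2, and 3 and 4 without siKlf4 TGFβ array 1 and 2, and 3 rose without either siKlf4 TGFβ array.

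Most stress and hypoxia genes did not pass the test in siControl cells, and those that did moved in both directions. Of 36 genes of the unfolded protein response and Atf4 targets (37 listed), 8 fell, 3 rose and 25 did not pass the test (median -0.05), and of 28 glycolysis and hypoxia genes (31 listed) 8 fell, 3 rose and 17 did not (median -0.15), where 6.65% of all genes fell and 5.81% rose. Ddit4, which restrains mTORC1, read 7.47 and 7.61 in siControl cells with TGFβ, against 8.48 and 8.43 in siControl cells without it, and fell by 0.91. The stress transcription factors Atf3 (-0.74) and Ddit3 (-0.68), the stress regulator Nupr1 (-0.73), the glutathione-degrading enzyme Chac1 (-0.64) and the pseudokinase Trib3 (-0.63) fell too. In siKlf4 cells the differences were 0.23 for Ddit4, 0.43 for Atf3, 0.59 for Chac1 and 0.35 for Trib3. There, 10 of the 36 genes rose and 4 fell, where 6.01% of all genes rose and 6.87% fell. The gap between the effects was called, lower in siControl, for 6 of the 36, against 0.547% of all genes, but for 4 without siControl array 2, 1 without either siControl TGFβ array, and 3 and 0 without siKlf4 TGFβ array 1 and 2. Ankrd37 read 5.97 and 6.01 in siControl cells with TGFβ, against 7.46 and 7.26 without it, and the mitophagy receptor Bnip3 (-0.74) and the aldolase Aldoc (-0.73) fell, while the hexokinase Hk2 rose by 0.52. The stress genes that rose in siControl cells were 0 without siControl array 1, either siControl TGFβ array or either siKlf4 TGFβ array and 1 without siControl array 2, and the glycolysis and hypoxia genes were 1 higher and 5 lower without siControl TGFβ array 1. In siKlf4 cells, 6 rose and 2 fell without either siControl TGFβ array, 6 and 5 rose and 1 fell without siKlf4 TGFβ array 1 and 2, and 2 and 1 fell without siKlf4 array 1 and 2.

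Genes of steroid, retinoid and xenobiotic metabolism moved in both directions, and most did not pass the test. Of 39 measured genes of cytochrome P450, conjugation and aldehyde metabolism (42 listed), 9 rose, 4 fell and 26 did not pass the test, with a median of 0.13, where 5.81% of all genes rose and 6.65% fell, and by the ordinary analysis of variance 4 rose and 0 fell. Cyp1b1, a cytochrome P450 that oxidizes oestradiol and aromatic hydrocarbons, read 8.17 and 8.17 in siControl cells with TGFβ, against 6.83 and 6.78 in siControl cells without it, and differed by 1.37 in siControl and 1.37 in siKlf4 cells. Aldh1a7, a cytosolic aldehyde dehydrogenase, read 6.32 and 6.39 with TGFβ, against 5.34 and 5.14 without it, a rise of 1.11, against 0.02 in siKlf4 cells. In siKlf4 cells Aldh1a7 was low in both groups (4.03 and 4.01 with TGFβ, against 4.03 and 3.98 without). The quinone reductase Nqo1 rose by 0.96 and the glutathione transferase Gsta4 by 0.78. Of 33 Nrf2 and glutathione genes (36 listed), 5 rose and 4 fell, and 3 rose by the ordinary analysis of variance. The glucuronosyltransferases Ugt2b34 (1.37) and Ugt2b35 (1.46) rose, differed by -0.15 and 0.00 in siKlf4 cells, and cannot be told apart where their probes match both. Ugt2b34 read 9.47 and 9.62 in siControl cells with TGFβ, against 8.26 and 8.09 without it. In siKlf4 cells it was low in both groups (4.39 and 4.88 with TGFβ, against 4.71 and 4.86 without). Of the 39 genes, those that fell were Akr1c18 (-1.51), the alcohol dehydrogenase Adh1 (-0.91), the carbonyl reductase Cbr1 (-0.51) and Mettl7b (-0.61). The steroid 21-hydroxylase Cyp21a1 (-1.56), given above among the largest decreases, is outside this list. Of the metabolic genes, 1 fell without siControl TGFβ array 1, and the Nrf2 genes were 2 lower without siControl array 1, 2 higher and 2 lower without siControl TGFβ array 1, and 3 higher and 0 lower without siControl TGFβ array 2.

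Some genes changed in siControl cells by an amount that differed from that in siKlf4 cells. The test of the difference between the effects called 304 genes (1.52%), 195 of them higher in siControl (0.978%) and 109 lower (0.547%), and 180 of the 304 were also called for TGFβ within siControl cells. By the ordinary analysis of variance the calls were 0 and 0, and 1337 and 1063 at an unadjusted p under 0.05. The higher calls numbered 65 without siControl array 2, 29 and 17 without siControl TGFβ array 1 and 2, 104 without siKlf4 array 2, 129 without siKlf4 array 1, and 26 and 15 without siKlf4 TGFβ array 1 and 2. The lower calls numbered 63 and 54 without siControl array 1 and 2, 17 and 14 without siControl TGFβ array 1 and 2, 62 without siKlf4 array 2, and 24 and 13 without siKlf4 TGFβ array 1 and 2. Upk1b differed by 1.80 in siControl and -0.20 in siKlf4 cells, a gap of 2.00 between the effects (adjusted p = 0.00257 by limma). In siKlf4 cells Upk1b was low in both groups (4.60 and 4.89 with TGFβ, against 4.85 and 5.05 without). Upk3b, another uroplakin, read 7.19 and 7.01 in siControl cells with TGFβ, against 6.23 and 6.28 in siControl cells without it, with a gap of 1.56 (adjusted p = 0.00239). Arhgef26 read 8.41 and 8.64 in siControl cells with TGFβ, against 6.86 and 6.82 without it, and differed by -0.20 in siKlf4 cells. Cd36, a fatty acid transporter and thrombospondin receptor, rose by 1.41 in siControl cells (4.69 and 5.04 with TGFβ, against 3.56 and 3.34 without). It differed by -0.21 in siKlf4 cells, where it was low in both groups (2.77 and 2.85 with TGFβ, against 2.99 and 3.05 without). Fgf18 rose by 1.46 in siControl cells and differed by 0.38 in siKlf4 cells. The stromelysin Mmp10 had a gap of -1.88, with 5.60 and 5.43 in siControl cells with TGFβ, against 5.05 and 4.96 without it, and 8.86 and 8.90 in siKlf4 cells with TGFβ, against 6.29 and 6.70 without it. Plod2 had a gap of -1.29. For these 7 genes the gap passed limma's test with any single array left out.

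The genes known to respond to introduced double-stranded RNA and those of the RNA interference machinery showed a few calls, with the same siRNA in both siControl groups. Of 39 interferon-response genes measured (46 listed), 1 rose and 6 fell, and of 13 genes of the RNA interference machinery 2 rose and 3 fell, where 5.81% of all genes rose and 6.65% fell. Dtx3l, a ubiquitin ligase of the interferon response, read 5.81 and 5.65 in siControl cells with TGFβ, against 6.86 and 6.80 in siControl cells without it, and fell by 1.10, and Irf7, a transcription factor of the response, fell by 0.50. Ifit1 (3.31 and 3.52 with TGFβ, against 3.46 and 3.73 without) and Mx1 (3.28 and 3.16, against 3.12 and 3.06), genes strongly induced by interferon, lay low in both groups and did not pass the test. Tarbp2, a partner of Dicer, fell by 0.81 in siControl cells and differed by -0.48 in siKlf4 cells. Tnrc6a (0.71) and Tnrc6b (0.77), scaffold proteins of silencing, rose, whereas their relative Tnrc6c fell by 0.43. The Argonaute Ago3 also fell, by 0.58. Ago2, the Argonaute that cuts mRNA, differed by 0.05 (adjusted p = 0.761). Of the interferon genes, 3 fell without siControl array 1 and 2 without either siControl TGFβ array, 2 rose without either siKlf4 array and 0 rose without siControl TGFβ array 2. By the ordinary analysis of variance 2 of them rose and 3 fell.

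Across the 34 gene lists described by count, the share of measured members that passed the test ran between 0 for the Id genes and 72.9% for the replication genes, against 12.5% of all genes. Single members outside the groups above moved by large amounts: the cytokine Il33 rose by 1.30 and the growth factor carrier Igfbp3 by 1.12, while Cpt1a, the gate of mitochondrial fatty acid oxidation, fell by 0.98. Il33 read 12.11 and 12.03 in siControl cells with TGFβ, against 10.92 and 10.64 in siControl cells without it. Hmgcs1, an early enzyme of cholesterol synthesis, rose by 0.92, in contrast to Ebp of the same pathway. No Wnt or Notch gene of 44 measured (45 listed) fell (0 also at an unadjusted limma p under 0.05) and 2 rose, Fzd7 (0.81) and Hey1 (0.42). The Hey1 call did not hold once any siControl array, with or without TGFβ, or either siKlf4 TGFβ array was left out. Il33, Igfbp3, Cpt1a and Hmgcs1 stayed past the threshold with any single array left out.

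**Figure D5:**
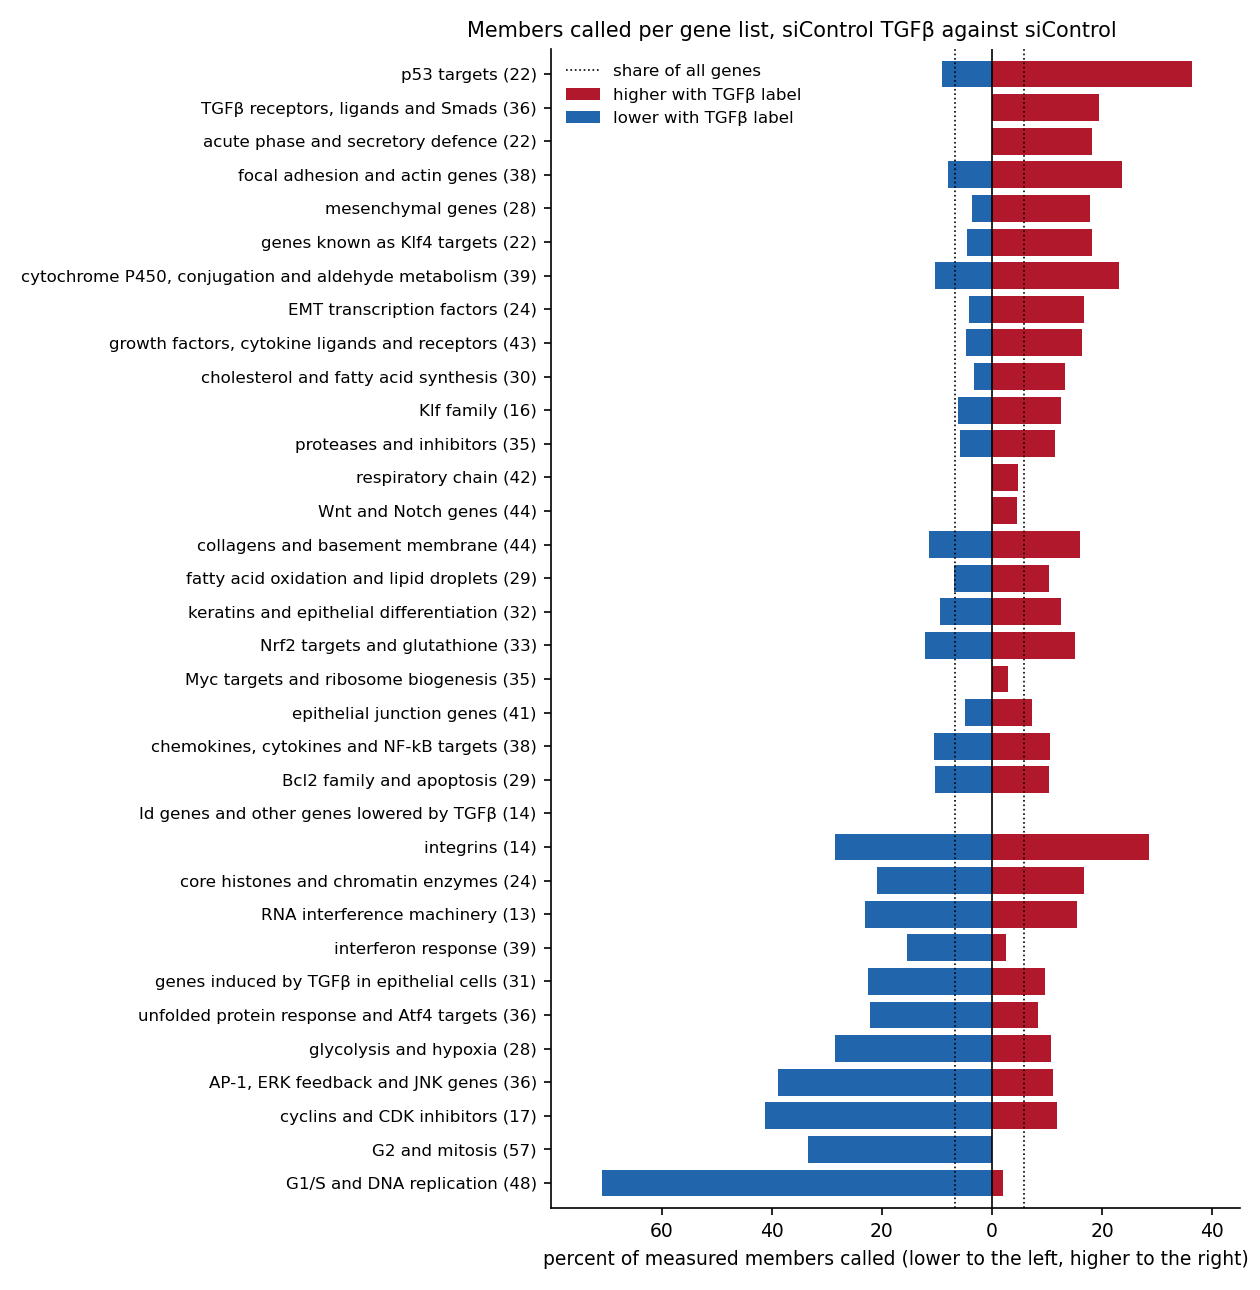
Share of measured genes of each list that rose or fell with TGFβ in siControl cells, in percent. Numbers of measured genes stand in brackets, dotted lines mark the shares of all genes, the bar of fallen genes is longest for the G1/S and replication genes, and the all-gene shares are 5.81% (rose) and 6.65% (fell).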

How the data were processed

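RNA of NMuMG cells was hybridised to 8 Affymetrix whole-transcript gene arrays, of which 2 siControl arrays with TGFβ and 2 without it were compared. The values deposited by the authors are log2 values per probe set, made by robust multi-array averaging (background correction, quantile normalization and summary of probes). The base was read from the range of the values, and the submitters' processing notes name oligo 1.14.0. Such quantile scaling makes the arrays alike in distribution, so a shift of most genes one way would not be seen.

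Probe sets were named through the platform annotation: of 34760, 21640 had 1 symbol, 1321 several and 11799 none listed, and 21553 matched RefSeq by Entrez ID. The highest mean over the 8 arrays decided the probe set used for the 954 genes that had more than 1. limma 3.58.1 (R 4.3.3) fitted 1 mean per group over the 8 arrays (4 residual degrees of freedom, prior 4.93), with eBayes and Benjamini-Hochberg adjustment over 19937 genes at 0.05. The difference of effects is the TGFβ difference in siControl minus that in siKlf4 cells. The fit was tested on simulated data. The number of arrays limits the precision.

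Named genes were the 15 largest increases and 15 largest decreases, members of 34 gene lists and genes shown for their role. Members and lists were chosen with earlier results of these data known, and no list was tested as a set. Genes of a list that were not measured here were left out. Alternatives were a fit on 4 arrays, eBayes with trend and robust options, an ordinary analysis of variance, the replicate number as a block, array weights, further normalization, a filter on dim genes, other probe set rules, stricter thresholds and leaving out each array.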

Additional observations from a re-analysis of the deposited data

Results flagged for a closer look

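The TGFβ difference in siControl cells minus that in siKlf4 cells, on the log2 scale, passed limma's test (adjusted p under 0.05) for 45 of the genes named in the report or chosen by its rule for named genes. Of these, 8 passed with any single array left out. The number that passed was 35 and 24 without siControl array 1 and 2, 12 and 9 without siControl TGFβ array 1 and 2, 32 and 28 without siKlf4 array 1 and 2, and 17 and 9 without siKlf4 TGFβ array 1 and 2. An ordinary analysis of variance called 0 genes for this difference. Surface, growth factor and metabolic genes with a more positive effect in siControl cells were Upk1b (2.00), Arhgef26 (1.89), Fgf18 (1.08), Upk3b (1.56), Cd36 (1.62), Aldh1a7 (1.10) and Ugt2b34 (1.52), with the detoxification genes Nqo1 (0.87) and Osgin1 (1.06). The same held for the receptor and adhesion genes Tgfbr2 (0.63), Itgb6 (0.93), Vcam1 (1.33) and Eda2r (0.85) and the Ras inhibitor Spry1 (0.86). Osgin1 (-0.48 in siControl and -1.54 in siKlf4 cells) and Itgb6 (-0.54 and -1.47) fell in both, by less in siControl cells. Of the genes named so far, Upk1b, Cd36, Aldh1a7, Ugt2b34 and Nqo1 were low in siKlf4 cells both with TGFβ and without it. Cell cycle genes with a more positive effect were Ccne1 (0.64), Tk1 (1.07), Mcm5 (0.82), Uhrf1 (0.95), Ncapg2 (1.01), Ncapg (0.72), Asf1b (0.75), Top2a (0.74), Plk1 (0.77), Cdk1 (0.86) and Ccnb2 (0.97). A more negative effect in siControl cells was found for the secreted and matrix genes Ltbp1 (-1.01), Edn1 (-0.96), Inhba (-0.76), Plod2 (-1.29) and Mmp10 (-1.88). It was also found for the stress and hypoxia genes Ankrd37 (-1.03), Bnip3 (-1.05), Ddit4 (-1.15), Chac1 (-1.23), Trib3 (-0.99), Ddit3 (-0.81) and Atf3 (-1.16), for Jun (-1.06), Ier3 (-0.74), Fosb (-1.10), Ptgs2 (-1.33) and Ccng2 (-0.79), and for Akr1c18 (-1.82), Mettl7b (-0.83) and Bmf (-0.78). Akr1c18 was low in both siKlf4 groups (4.49 and 4.38 with TGFβ, against 4.03 and 4.23 without).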

How the results depend on the processing

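The counts in siControl cells (1158 higher, 1326 lower) were 734 and 755 by an ordinary analysis of variance, 563 and 644 at an adjusted p under 0.01, 373 and 455 at 1.5-fold, and 481 to 1193 and 567 to 1352 with 1 array left out. The difference of effects (195 higher, 109 lower) gave 473 and 287 with trend and robust options, 21 and 16 at an adjusted p under 0.01, 0 and 0 by ordinary analysis of variance (1337 and 1063 at an unadjusted p under 0.05), 167 lower after quantile normalization, and 15 to 151 and 13 to 82 with 1 array left out. Deviations of arrays with the same number correlated with r = 0.0069 between the siControl groups and -0.0503 to 0.3817 over all pairs of groups, highest between siKlf4 and siControl cells without TGFβ, and the replicate block gave 1211 and 1349. List medians moved after quantile normalization to 0.022 (proteases), 0.045 (p53), -0.052 (interferon), 0.091 (P450), 0.073 (fatty acid oxidation) and -0.111 (glycolysis), and after loess to 0.016 (proteases), 0.070 (fatty acid oxidation), -0.185 (glycolysis) and -0.031 (histones). Without dim genes they were 0.105 (proteases) and 0.139 (growth factors). With probe sets averaged, the Klf family median was 0.001, a change of sign from -0.068 in the main fit. With 1 array left out, medians ran over -0.190 to -0.094 (AP-1), -0.045 to 0.065 (Bcl2), -0.492 to -0.402 (replication), -0.093 to -0.015 (Klf), -0.072 to 0.043 (Myc), 0.001 to 0.062 (Nrf2), -0.027 to 0.065 (RNA interference), 0.034 to 0.210 (Wnt), -0.053 to 0.197 (collagens), -0.083 to 0.000 (histones), 0.059 to 0.103 (fatty acid oxidation), -0.181 to -0.134 (glycolysis), 0.068 to 0.128 (growth factors), -0.056 to 0.011 (interferon), -0.001 to 0.139 (keratins), -0.002 to 0.133 (mesenchymal), -0.049 to 0.166 (p53), 0.016 to 0.124 (proteases) and -0.085 to -0.033 (stress). The cause of these shifts was not tested. No called value changed sign, but the medians whose range here spans 0 did, and of 230 named genes, 173 were called and 106 of those stayed called with any single array left out.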
